A study of Mus musculus with 60 samples.

Results

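The 9 genes described here, Sox9, Sox4, Krt19, Krt7, Epcam, Cd24a, Prom1, Cd44 and Spp1, are widely used to mark bile duct cells and liver progenitor cells. They were taken as a fixed list, by gene symbol, out of the 19460 symbols in the expression tables. All 9 are among the 19355 symbols of the table on cultured cells and the 17473 of the table on livers, and 1 of them, Cd24a, is among the 480 symbols of a smaller table on day 7 cultures. The labels give every sample as WT (wild type) and C57BL/6, and the hepatocyte donors and operated animals were 8 to 10 weeks old. The cultured cell table has 33 samples in 11 groups of 3. These are freshly isolated hepatocytes, and hepatocytes grown for 3 or 14 days in hepatocyte culture medium (HCM, with EGF and HGF) plus the cytokine IL6. The latter are IL6-iHPCs-D3 and IL6-iHPCs-D14, both before the first passage, P0. The other groups are 4 passaged IL6-induced hepatic progenitor cell (IL6-iHPC) lines and the IL6-induced mature hepatocytes (IL6-iMHs) that the study describes as differentiated from each. The lines are mouse-1 at passage 10 (P10), mouse-2 at P10, clone-1 at P20, which was grown from 1 hepatocyte, and mouse-1 at P35. As mouse-1 enters at 2 passages, the 4 lines are 4 cultures of 3 lines, and a mean of the 4 weights mouse-1 by 2. In the study's methods, single-cell clones were grown from hepatocytes carrying Albumin-Cre and the R26R tdTomato reporter, which the labels do not mention, and whether clone-1 carries both is not given in the sources used here. The mouse-1 and mouse-2 lines each come from 1 mouse. The IL6-iMHs were obtained by 7 days in a maturation medium with oncostatin M and with no IL6, EGF or HGF listed. Dexamethasone is in both media, at a higher dose in the maturation medium. The liver table has 18 samples, 3 each of normal liver and of liver taken 6 or 24 h or 3, 7 or 14 days after 2/3 partial hepatectomy (PHX). The day 7 table has 9 samples, 3 each of primary hepatocytes, IL6-iHPCs-D7 and hepatocytes kept for 7 days in HCM without IL6 (HCM-Hepa-D7).

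Hepatocytes and cholangiocytes, the cells that line the bile ducts, arise from a common fetal precursor, and adult hepatocytes keep the shared precursor genes largely silent. In injured liver and in culture, hepatocytes can take on part of the biliary programme, and such cells are described as progenitor-like or ductal-like. Sox9 and Sox4 are transcription factors of bile duct development. Krt19 and Krt7 are the simple keratins of cholangiocytes. Epcam, Cd24a, Prom1 (CD133) and Cd44 are surface proteins used to sort progenitor cells, and Cd44 is also the receptor of the matrix sugar hyaluronan. Spp1 encodes osteopontin, a secreted matrix protein that binds integrins and Cd44 and is made by cholangiocytes and by activated macrophages and stellate cells.

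In the mouse genome (GRCm38, which is mm10), the RefSeq annotation places Sox9 at chr11:112782210-112787757, Sox4 at chr13:28948919-28953699, Krt19 at chr11:100140810-100145926 and Krt7 at chr15:101412403-101427806. Epcam lies at chr17:87635979-87651127, Cd24a at chr10:43579169-43584265, Prom1 at chr5:43993621-44102047, Cd44 at chr2:102811141-102901669 and Spp1 at chr5:104435111-104441053. RefSeq promoter windows matched 6 of the 9 genes, in 8 windows. Sox9, Krt19 and Cd24a had no window. The 250 bases before each start were searched on both strands for a STAT site (TTCNNNGAA), an AP-1 site (TGANTCA), a TEAD site (GGAATG), a SOX site (ACAAAG) and a RUNX site (ACCACA), and no match overlapped another. The STAT letters were in 0 of the 8 windows, beside 7.02% of 32851 windows of all genes. The AP-1 letters, in 6.75% of all windows, were in both Prom1 windows. The TEAD letters, in 12.6% of all windows, were in the Sox4 window, the SOX letters, in 16.5%, in both Spp1 windows, and the RUNX letters, in 14.0%, in 1 window each of Prom1 and Spp1. The windows of Krt7, Epcam and Cd44 held no match. The upstream sequences of 3 genes with opposite courses in the data below are shown, 5′ to 3′ on the gene's own strand and ending at the base before the start: Spp1 (chr5:104434861-104435110, plus strand), which stayed far above the hepatocyte level in every culture, Sox4 (chr13:28953700-28953949, minus strand), which was highest at day 3, and Prom1 (chr5:44101737-44101986, minus strand), which was near 0 in most passaged lines. Capitals mark the matched letters, the SOX site 168 and the RUNX site 128 bases upstream in Spp1, the TEAD site 168 bases upstream in Sox4, and the AP-1 site 88 and the RUNX site 24 bases upstream in Prom1. A match to these letters is a description of the sequence and not a measured binding site.
Spp1: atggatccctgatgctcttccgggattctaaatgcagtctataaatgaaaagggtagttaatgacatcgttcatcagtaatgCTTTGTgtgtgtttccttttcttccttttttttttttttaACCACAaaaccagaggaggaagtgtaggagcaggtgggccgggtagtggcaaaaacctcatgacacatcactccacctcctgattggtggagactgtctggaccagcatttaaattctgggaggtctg
Sox4: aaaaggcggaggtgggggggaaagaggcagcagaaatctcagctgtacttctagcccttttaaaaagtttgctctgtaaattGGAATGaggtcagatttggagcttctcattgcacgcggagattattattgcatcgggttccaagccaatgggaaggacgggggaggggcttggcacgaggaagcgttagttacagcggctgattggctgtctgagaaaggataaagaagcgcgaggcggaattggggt
Prom1: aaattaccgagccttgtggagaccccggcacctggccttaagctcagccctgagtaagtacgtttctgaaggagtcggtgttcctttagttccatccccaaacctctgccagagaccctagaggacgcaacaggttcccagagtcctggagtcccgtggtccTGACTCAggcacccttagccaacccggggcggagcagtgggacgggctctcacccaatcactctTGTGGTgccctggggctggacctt

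Values are FPKM, which scale the reads of a gene to transcript length and library size, and the low values stepped in whole reads, which gave 49.3 to 88.8 M reads on genes per cultured cell library and 52.0 to 79.2 M per liver library. The samples of a cultured group are described as technical repeats, so their p-values cover the spread between repeats of 1 culture and not between animals. The hepatocyte marker list (10 genes) checked the cell type labels, not the lines: it summed to 74940 to 80691 FPKM in hepatocytes, 59696 to 81106 in IL6-iMHs and 1891 to 9466 in passaged IL6-iHPCs. Gene by gene, 5 of the 10 were called lower and 0 higher in IL6-iMHs (mean of 4 lines) than in hepatocytes, beside 7.79% and 24.8% of all genes. The median log2 difference of the 10 was -1.35, beside 0.46 for all genes. The labels also leave the donors' sex open, and 4 Y-linked genes (Ddx3y, Eif2s3y, Kdm5d and Uty) summed to 5.46 to 7.21 FPKM in hepatocytes, 70.5 to 81.4 at D3, 53.4 to 62.3 at D14 and 33.9 to 38.7 in the clone-1 IL6-iHPCs. Their sum was 0 to 0.0157 in the other 9 passaged IL6-iHPC samples and 0 in all 12 IL6-iMH samples, the 3 labelled clone-1 among them. The library labelled clone-1 therefore differs in this measure between IL6-iHPCs and IL6-iMHs. Results over the 4 lines are also given without clone-1, a choice made after seeing the data. Other groups that differ in this measure may come from different donors, and the part of the donor in comparisons between them was not tested. In the livers, replicate 3 at 24 h and replicate 2 at day 3 stood apart in several of the 9 genes. All samples are bulk, so that fewer cells of a kind and less RNA per cell cannot be told apart.

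In hepatocytes the 9 genes were low or silent. Spp1 had the highest level, 2.42, 2.28 and 2.97 FPKM in the 3 samples, followed by Sox9 at 1.396, 1.65 and 0.834 FPKM. Cd24a was at 0.438, 0.441 and 0.254 FPKM and Cd44 at 0.294, 0.289 and 0.365 FPKM. The other 5 rested on a handful of reads: Sox4 on 10, 9 and 0 reads, Krt19 on 4, 0 and 2, Epcam on 5, 2 and 0, Prom1 on 0, 2 and 0, and Krt7 on none in any of the 3 samples.

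After 3 days with IL6, 7 of the 8 genes that could be tested were higher than in hepatocytes, with the SOX factor Sox4 showing the largest change. Across all 12328 genes tested, 53.9% were called higher in this comparison (limma, adjusted p under 0.05 and at least 2-fold), so a rise was the common outcome. The median log2 difference was 3.87 for the 8 genes and 1.14 for all genes, also with Krt7, which had no reads in hepatocytes, at its lower bound. Sox4 was at 372, 323 and 426 FPKM at D3, and all 3 values lay above every sample of any other group. Its log2 difference from hepatocytes, on the log2(FPKM + 1) scale used throughout, which understates the change of low genes, was 8.50 (SE 0.116, adjusted p = 1.63e-31). Sox9 was at 19.99, 20.1 and 21.2 FPKM, a log2 difference of 3.24 (SE 0.0987, adjusted p = 4.20e-23). Cd24a was at 96.9, 92.5 and 102 FPKM, Cd44 at 30.2, 27.3 and 29.3 FPKM and Spp1 at 418, 502 and 323 FPKM, with log2 differences of 6.16, 4.51 and 6.85. In each of these genes the D3 samples and the hepatocytes were separate by a wide margin. The keratin Krt19 rose to 8.06, 6.77 and 9.55 FPKM (log2 difference 3.14). Prom1 rose to 2.19, 2.40 and 2.54 FPKM (1.75), which was its highest level in the table. Krt7 was at 0.155, 0.0930 and 0.432 FPKM, that is 14, 10 and 41 reads, and its log2 difference of 0.28 was not called (adjusted p = 0.0530), although against the 3 reads per library that a count of 0 allows it was at least 6.76-fold higher. Krt7 was called with a pseudocount of 0.1 in place of 1 (1.57) and in the voom fit of recovered reads (5.30). After quantile normalization the same number of the 8 genes, 7, were higher, while the median of all genes moved from 1.14 to 0.11 and the share of calls that were higher moved from 81.6% to 53.6%.

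From day 3 to day 14 the 9 genes took different courses. Sox9, Krt19, Krt7, Cd44 and Spp1 rose further, 5 genes beside 5.12% of all genes, and Sox4 fell, 1 gene beside 5.05%. The biliary keratins showed it most clearly: Krt19 reached 54.1, 46.6 and 45.3 FPKM, and Krt7 reached 7.57, 6.48 and 8.48 FPKM, log2 differences of 2.45 and 2.80 from D3. No D14 sample of either keratin came near the D3 samples. Sox9 rose to 62.6, 59.0 and 60.1 FPKM (1.52), its highest level in any group. Cd44 rose to 129, 126 and 130 FPKM (2.11), also its highest. Spp1 rose to 3936, 4371 and 4001 FPKM (3.33). Sox4 fell by 1.19 on the log2 scale, to 166, 164 and 158 FPKM, still the second highest group for this gene. Cd24a was at 154, 162 and 162 FPKM (0.71) and Prom1 at 0.889, 0.969 and 1.06 FPKM (-0.77), and neither passed the 2-fold threshold, though their D3 and D14 samples did not overlap. Epcam, which was under the filter on low values and was not tested, was at 0.247, 0.150 and 0.227 FPKM at D3 and 0.309, 0.545 and 0.490 FPKM at D14. Against hepatocytes, 7 of the 8 tested genes were higher at D14, where 50.0% of all genes were, with log2 differences up to 10.18 for Spp1. Prom1 was at 0.98, and at 1.01 and called without replicate 1 of D14. Krt7 was at least 224-fold higher. After quantile normalization the number was also 7, and the share of all calls that were higher was 52.8% in place of 79.4%.

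**Figure D1:**
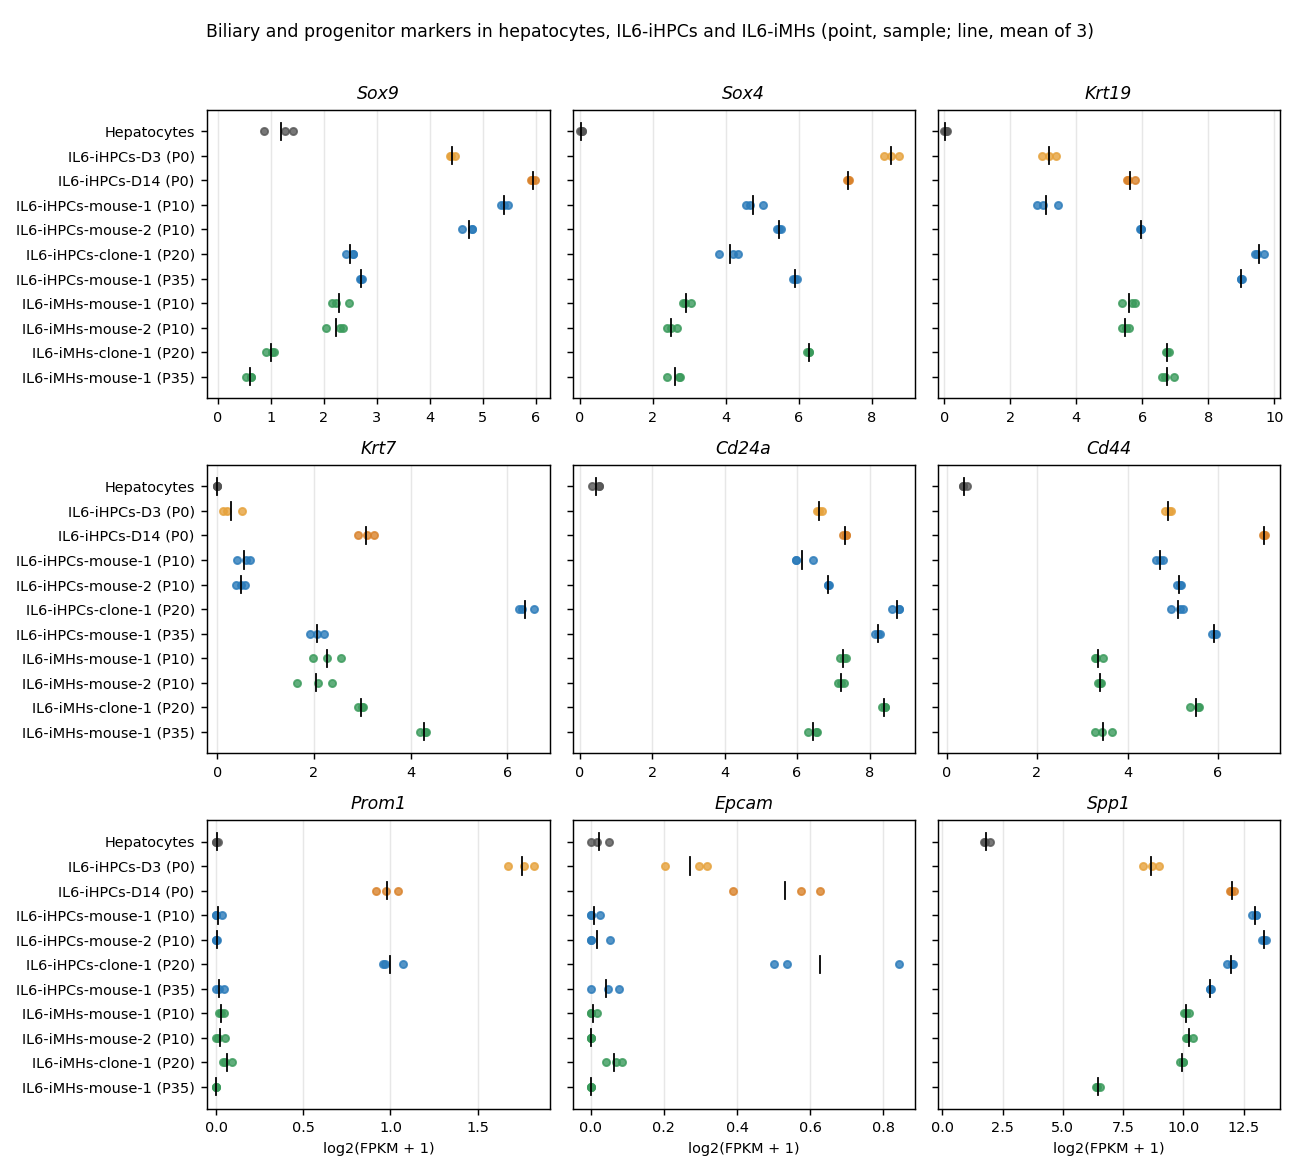
Each panel plots 1 gene as log2(FPKM + 1) in the 11 groups of the cultured cell table, with 1 point per sample, a line at the mean of the 3 and an axis of its own range. Spp1 and Cd24a are above the hepatocyte level in every culture, Sox4 peaks at D3 and Sox9 and Cd44 at D14, and Epcam and Prom1 stand above the baseline at D3, D14 and in the clone-1 IL6-iHPCs.

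Marker lists of other liver cell types were measured in the same cultures. The stellate list (7 genes) summed to 0.641 to 0.979 FPKM in hepatocytes, 0.677 to 1.16 at D3 and 25.0 to 26.7 at D14, where 1 of the 7 reached 1 FPKM. Only 1 of the 7 could be tested, and it was called higher at D14 than in hepatocytes (log2 difference 4.06), as were 50.0% of all genes. It was also called higher at D14 than at D3 (4.13), beside 5.12% of all genes. Col1a1, the main fibrillar collagen, was at 0.361 ± 0.0641 FPKM at D14 (SD, n = 3). The macrophage list (13 genes) summed to 25.9 to 29.4 FPKM in hepatocytes, 42.5 to 49.8 at D3 and 22.7 to 25.5 at D14. Gpnmb made up 21.5 FPKM of it at D3 and 19.1 at D14, and the Kupffer cell markers Clec4f and Timd4 were listed at 0 in every D3 and D14 sample. In the passaged IL6-iHPCs the macrophage list summed to 1.33 to 10.1 FPKM and the stellate list to 3.43 to 19.4, and in the IL6-iMHs to 1.50 to 41.5 and at most 0.611. The endothelial list (7 genes) summed to 16.4 to 18.9 FPKM in hepatocytes, 7.15 to 8.56 at D3 and under 0.752 in every other culture. Their part in the result was not tested.

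In the mean of the 4 passaged IL6-iHPC lines, 7 of the 8 tested genes were higher than in hepatocytes, where 48.1% of all genes were, and Prom1 was not called. Without clone-1 the number was also 7, beside 46.5% of all genes, and after quantile normalization it was 7 as well, with 54.5% of all calls higher in place of 81.0%. Line by line, 6 genes (Sox9, Sox4, Krt19, Cd24a, Cd44 and Spp1) were called higher in all 4 lines, which was true of 31.4% of all genes. Spp1 was the most abundant of the 9 in each of the 12 samples, at 2184 to 10889 FPKM, and its group means were 866 to 4047 times the hepatocyte mean. In mouse-2 P10 it stood at 9772, 10889 and 10385 FPKM, above every sample of every other group. In mouse-1 P10 it was at 8353, 8391 and 7358 FPKM, in clone-1 at 4124, 3603 and 4281, and in mouse-1 P35 at 2269, 2184 and 2194. The clone-1 samples overlapped those at D14, and the other lines did not.

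The 9 genes varied between lines to very different degrees. The highest line mean was 2.35 times the lowest for Cd44, 3.53 times for Sox4, 4.67 times for Spp1, 6.20 times for Cd24a and 8.90 times for Sox9, but 96.1 times for Krt19 and 201 times for Krt7. Krt19 was at 9.94, 6.07 and 6.94 FPKM in mouse-1 P10 and at 61.5, 60.4 and 61.2 FPKM in mouse-2 P10. It was at 517, 506 and 508 FPKM in mouse-1 P35 and at 681, 708 and 815 FPKM in clone-1. No 2 lines overlapped in this keratin. Krt7 was at 0.601, 0.320 and 0.506 FPKM in mouse-1 P10, 0.495, 0.411 and 0.312 in mouse-2 P10, and 2.77, 3.61 and 3.17 in mouse-1 P35. In clone-1 it was at 78.0, 74.9 and 92.4 FPKM, so that this line alone was far above the D14 culture. Against the limit that 0 reads in hepatocytes allows, Krt7 was at least 14.2-fold, 12.1-fold, 95.0-fold and 2438-fold higher in mouse-1 P10, mouse-2 P10, mouse-1 P35 and clone-1. The log2 difference of Krt7 in mouse-1 P10 and mouse-2 P10 (0.56 and 0.49) was under the 2-fold threshold on the log2(FPKM + 1) scale.

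Sox9, the early biliary transcription factor, had the reverse order. It was at 39.7, 41.2 and 43.6 FPKM in mouse-1 P10 and at 23.4, 26.9 and 26.7 FPKM in mouse-2 P10. In clone-1 it was at 4.84, 4.82 and 4.33 FPKM and in mouse-1 P35 at 5.54, 5.43 and 5.58 FPKM. The 2 lines with the most Krt19 thus had the least Sox9, though both were above every hepatocyte sample. Their log2 differences from hepatocytes, 1.32 for clone-1 and 1.52 for mouse-1 P35, were -0.094 and 0.028 after quantile normalization, so the direction for clone-1 turned and the call for mouse-1 P35 was lost. Sox4 was at 31.3, 22.5 and 24.3 FPKM in mouse-1 P10, 44.5, 41.2 and 43.3 in mouse-2 P10, 19.3, 17.3 and 12.99 in clone-1 and 60.5, 58.1 and 56.6 in mouse-1 P35. No 2 of these 4 groups overlapped.

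Among the surface proteins, Cd24a was at 85.1, 61.2 and 62.2 FPKM in mouse-1 P10, 118, 115 and 114 in mouse-2 P10, 448, 395 and 450 in clone-1 and 310, 284 and 299 in mouse-1 P35. Its lines stood in the same order as those of Krt19. Cd24a has processed copies elsewhere in the mouse genome, and how reads shared with them were counted is not given in the sources used here. Cd44 was at 26.5, 23.8 and 25.2 FPKM in mouse-1 P10, 34.7, 35.5 and 33.1 in mouse-2 P10, 34.5, 36.3 and 30.2 in clone-1 and 57.2, 60.6 and 59.8 in mouse-1 P35. Mouse-2 P10 and clone-1 overlapped in Cd44, and mouse-1 P35 was above the rest. Prom1 and Epcam were detected in clone-1, at 0.960, 1.10 and 0.939 FPKM and at 0.451, 0.794 and 0.415 FPKM. In the other 9 passaged samples neither passed 0.0557 FPKM. Epcam and Prom1 were thus highest in the D3, D14 and clone-1 IL6-iHPC groups, which are also the 3 groups with the highest sums of Y-linked genes, and the part of the donor in this result was not tested.

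Against the D14 culture, the mean of the passaged lines was higher in Krt19 (log2 difference 1.26, 1 gene beside 4.89% of all genes). It was lower in Sox9 (-2.11), Sox4 (-2.30) and Cd44 (-1.79), 3 genes beside 6.57%. The lines differed in Krt19, with a mean of 7.65 FPKM in mouse-1 P10 and 61.0 in mouse-2 P10, against 48.7 at D14. Both mouse-1 P35 (510) and clone-1 (735) were far above D14. Without clone-1 the log2 difference of Krt19 was 0.38 and not called, and leaving out mouse-1 P35 was not tested. Also without clone-1, that of Krt7 went from -0.71 to -2.05 and was called lower, and that of Cd24a turned from 0.16 to -0.26. In the voom fit 32.1% of all calls were higher in place of 42.7%. The Y-linked genes summed to 53.4 to 62.3 FPKM at D14, to 33.9 to 38.7 in clone-1 and to at most 0.0157 in the mouse-1 and mouse-2 IL6-iHPCs. The D14 culture and these lines may thus differ in donor, and passage and donor cannot be told apart in this comparison.

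Within the mouse-1 line, longer passaging came with more of both keratins and less Sox9 and Spp1. From P10 to P35, Krt19 rose by 5.91 on the log2 scale (SE 0.122), the largest difference of the 8, and Cd24a (2.10), Krt7 (1.50), Cd44 (1.20) and Sox4 (1.15) rose as well. These are 5 genes beside 24.8% of all genes. Sox9 fell by 2.70 and Spp1 by 1.86, 2 genes beside 8.94%. In none of these 7 genes did the P10 and P35 samples overlap. Only the P10 and P35 cultures of 1 mouse are compared, so passage and culture cannot be told apart. After quantile normalization 4 of the 7 calls were left, Sox4 (0.77), Cd44 (0.82) and Spp1 (-0.92) falling under the 2-fold threshold, and 51.4% of all calls were higher in place of 73.5%. The leukocyte list (9 genes) summed to 86.3 to 92.3 FPKM at P35, to 27.8 to 36.2 in clone-1 and to at most 0.188 at P10 in either mouse. S100a8 made up 84.0 FPKM of it at P35 and 26.8 in clone-1, while the pan-leukocyte marker Ptprc was at 0.0753 and 0.0410 FPKM. The 2 lines high in Krt19 are those high in S100a8, a calcium-binding protein of neutrophils and stressed epithelium, and its part in the result was not tested.

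In the IL6-iMHs, Sox9 and Spp1 were lower than in the IL6-iHPCs of the same label in all 4 lines. The keratins differed in opposite directions depending on the line, and Cd24a and Spp1 stayed far above hepatocytes. Over the mean of the 4 lines 4 genes were lower, Spp1 (log2 difference -3.16), Sox9 (-2.31), Sox4 (-1.47) and Cd44 (-1.30), where 21.4% of all genes were lower. None of the 8 was called higher, beside 6.68% of all genes; all 8 had an unadjusted p under 0.05, and voom called 1 higher. After quantile normalization 3 were lower, Cd44 (-0.998) falling just short of 2-fold, and 52.0% of all calls were higher in place of 23.8%. Without clone-1, 4 genes were lower (24.5% of all genes) and 1 was higher (8.76%), because Krt7, at 0.52 over 4 lines, was at 1.83 over 3. Sox9 and Spp1 were the 2 genes called lower in all 4 lines taken singly, which was true of 3.33% of all genes, and 0 of the 8 were called higher in all 4, beside 1.95%. Line by line, 3 were higher and 4 lower in mouse-1 P10 (9.59% and 15.4% of all genes), 1 and 4 in mouse-2 P10 (11.2% and 28.6%), 1 and 4 in clone-1 (5.86% and 17.7%) and 1 and 6 in mouse-1 P35 (10.2% and 35.1%). Tested directly, the change differed from that in mouse-1 P10 for 2 genes in mouse-2 P10 (14.7% of all genes), for 6 in clone-1 (30.8%) and for 6 in mouse-1 P35 (33.7%), of which Sox9 was not called with a pseudocount of 0.1 (0.18) or by voom (-0.021).

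Sox9 went to 3.72, 4.54 and 3.45 FPKM in the mouse-1 P10 IL6-iMHs, 4.13, 3.97 and 3.09 in mouse-2 P10, 1.09, 1.03 and 0.862 in clone-1 and 0.544, 0.444 and 0.549 in mouse-1 P35. These levels were 9.41%, 14.5%, 21.3% and 9.29% of those in the IL6-iHPCs of the same label, and no group of IL6-iMHs overlapped these IL6-iHPCs. For clone-1, whose 2 groups differ in the Y-linked genes, a shared origin was not tested. Spp1 was at 1095, 1044 and 1215 FPKM in mouse-1 P10, 1104, 1131 and 1363 in mouse-2 P10, 930, 1026 and 1008 in clone-1 and 82.1, 90.9 and 85.2 in mouse-1 P35. These levels were 13.9%, 11.6%, 24.7% and 3.88% of those in the IL6-iHPCs of the same label. The first 3 lines came to similar levels, and mouse-1 P35 was the lowest of all cultures in this gene.

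Krt19 converged. Its IL6-iMH levels were 53.4, 40.4 and 50.2 FPKM in mouse-1 P10, 44.2, 47.5 and 40.4 in mouse-2 P10, 104, 111 and 106 in clone-1 and 123, 102 and 95.7 in mouse-1 P35. The highest IL6-iMH mean was 2.42 times the lowest, where it was 96.1 times among the IL6-iHPCs. The log2 difference between IL6-iMHs and IL6-iHPCs was 2.52 in mouse-1 P10 and -0.46 in mouse-2 P10, against -2.77 in clone-1 and, in the P35 cells of mouse-1, -2.25. It was thus upward for the label with the lowest IL6-iHPC level and downward for those with the highest. Because the starting level is part of each difference, this ordering holds no information beyond the levels themselves. The tested difference from mouse-1 P10 was -2.98 for mouse-2 P10 (SE 0.172, adjusted p = 1.37e-14), -5.29 for clone-1 (SE 0.172, adjusted p = 5.02e-21) and -4.77 for mouse-1 P35 (SE 0.172, adjusted p = 3.24e-20). Krt7 rose in the 3 lines other than clone-1, to 4.89, 2.95 and 3.83 FPKM in mouse-1 P10, 3.25, 4.21 and 2.16 in mouse-2 P10 and 19.0, 17.4 and 18.6 in mouse-1 P35. In the clone-1 IL6-iMHs Krt7 was lower than in the IL6-iHPCs of that label, at 6.93, 7.10 and 6.58. Its log2 differences were 1.71, 1.55, 2.21 and -3.39, and the change in clone-1 differed from that in mouse-1 P10 by -5.10 (SE 0.196, adjusted p = 2.16e-19).

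Sox4 fell in the 3 lines other than clone-1, to 7.34, 6.38 and 6.10 FPKM in mouse-1 P10, 4.61, 5.34 and 4.22 in mouse-2 P10 and 5.63, 4.25 and 5.68 in mouse-1 P35, and rose to 77.2, 76.5 and 74.6 in clone-1. The log2 differences were -1.82, -2.95, -3.27 and 2.15. Cd44 fell to 8.81, 9.94 and 8.70 FPKM in mouse-1 P10, 9.60, 9.51 and 9.21 in mouse-2 P10 and 11.5, 8.66 and 9.86 in mouse-1 P35, and was at 47.0, 46.2 and 40.7 in clone-1, where the log2 difference of 0.40 was not called. Clone-1 was thus the exception for Sox4, Krt7 and Cd44. It is also the pair of libraries that differed in the Y-linked genes, and whether these IL6-iMHs came from the same cells as the clone-1 IL6-iHPCs was not tested. Cd24a rose to 157, 143 and 161 FPKM in mouse-1 P10 (1.15; 0.71 and not called after quantile normalization), fell to 91.8, 90.1 and 77.9 in mouse-1 P35 (-1.77), and was at 148, 140 and 157 in mouse-2 P10 and 325, 342 and 340 in clone-1, under 2-fold from the start. Epcam and Prom1 were at most 0.0602 and 0.0645 FPKM in all 12 IL6-iMH samples, which in clone-1 was 8.32% and 4.25% of the IL6-iHPC mean.

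**Figure D2:**
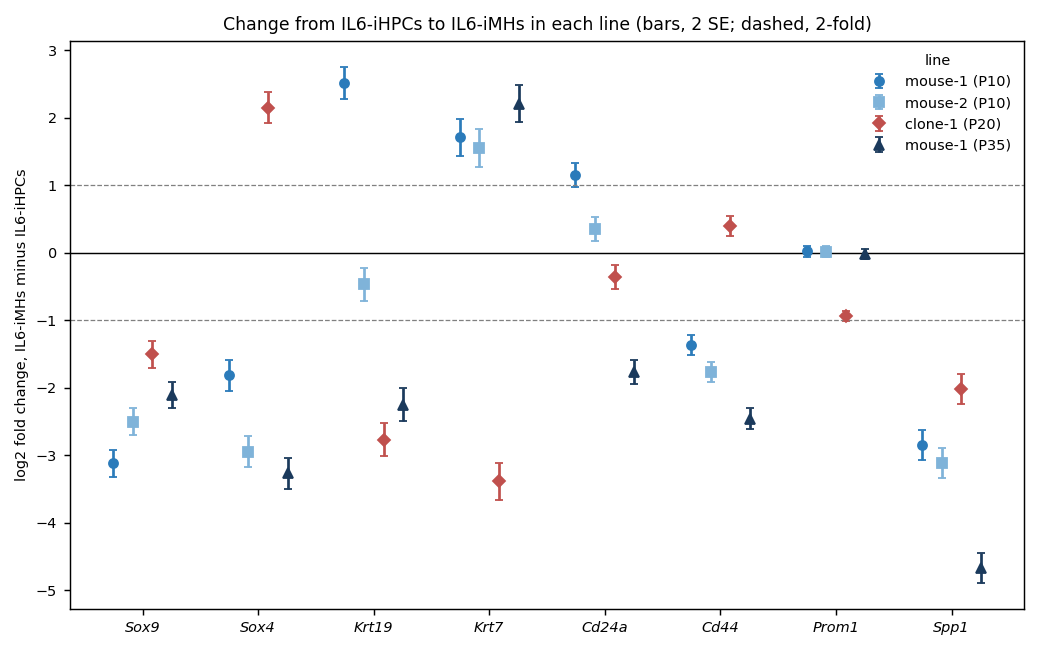
The log2 difference from IL6-iHPCs to IL6-iMHs is plotted for the 8 tested genes in each of the 4 lines, with bars of 2 standard errors and dashed lines at 2-fold. Sox9 and Spp1 lie below -1 in every line, from -1.51 to -3.12 and from -2.01 to -4.67. Sox4, Krt19, Krt7, Cd24a and Cd44 lie on both sides of 0, with clone-1 on the other side from mouse-1 P10. Prom1 lies near 0 in the lines other than clone-1 (-0.94).

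Set against hepatocytes, the IL6-iMHs kept 6 of the 8 tested genes higher in the mean over lines and in all 4 lines singly, namely Sox4, Krt19, Krt7, Cd24a, Cd44 and Spp1. Of all genes, 24.8% were higher in the mean and 12.3% in all 4 lines. The log2 differences were 7.36 for Spp1, 6.88 for Cd24a, 6.11 for Krt19, 3.54 for Sox4, 3.53 for Cd44 and 2.89 for Krt7, with a median of all genes of 0.46. The number was also 6 after quantile normalization, where 54.0% of all calls were higher in place of 76.1%, and also 6 without clone-1, beside 22.0% of all genes. Sox9, higher than hepatocytes in every IL6-iHPC line, differed between the IL6-iMH lines. Its mean log2 difference was 0.35 (-0.42 after quantile normalization), and its mean in each line was 3.02 (mouse-1 P10), 2.88 (mouse-2 P10), 0.396 (mouse-1 P35) and 0.768 (clone-1) times that of hepatocytes. In mouse-1 P10 (log2 difference 1.11) and mouse-2 P10 (1.05) it was still called higher, with 3.09 to 4.54 FPKM in the 6 samples against 0.834 to 1.65 in hepatocytes, but not after quantile normalization (0.32 and 0.59). The clone-1 samples overlapped the hepatocytes, and the difference there was called lower after quantile normalization alone (-1.17). The mouse-1 P35 samples lay below all 3 hepatocyte samples. The difference was -0.58, under 2-fold, and it was called lower with a pseudocount of 0.1 (-1.14), after quantile normalization (-1.40) and by voom (-1.33). Spp1 in the same cells was 437, 469, 33.7 and 386 times the hepatocyte mean. The comparisons in this and the preceding paragraphs share the same hepatocyte and IL6-iHPC samples.

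Other genes of the same programme were followed as lists. Of 18 further cholangiocyte genes, 15 were tested: 7 were higher and 1 lower at D3, 11 higher and 1 lower at D14, and 10 higher and 1 lower in the passaged lines, with medians of 0.74, 2.14 and 1.84 beside 1.14, 1.00 and 0.93 for all genes. Of all genes, 53.9%, 50.0% and 48.1% were higher in these 3 comparisons and 12.1%, 12.9% and 11.3% lower, so the share of this list that was higher was below that of all genes at D3. On maturation 6.68% of all genes were higher and 21.4% lower, and in the IL6-iMHs 24.8% were higher than in hepatocytes and 7.79% lower. These shares also stand beside the counts of the 2 lists that follow. Bicc1, an RNA-binding protein tied to cystic kidney disease, rose by 6.99 on the log2 scale at D14 and by 5.98 in the passaged lines. Ddr1, a collagen receptor, rose by 6.87 and 5.71. The water channel Aqp1 fell by 3.28 and 3.02. On maturation 0 of these 15 rose (2 at an unadjusted p under 0.05, 0 by voom) and 2 fell (12 lower at an unadjusted p under 0.05, 7 by voom), the keratin Krt23 (-1.99) and the membrane protease St14 (-1.21). Their median was -0.65 beside -0.40 for all genes. In the IL6-iMHs 7 were still higher than in hepatocytes and 1 lower. Of 9 further progenitor genes 6 were tested. At D14 5 were higher, among them the fetal albumin-like protein Afp (7.75) and Tnfrsf12a, the receptor of TWEAK (4.71). In the passaged lines 4 were higher, among them Tnfrsf12a (4.29) and the cell surface protein Igdcc4, which was at 5.44 FPKM in the mean and listed at 0 in hepatocytes, and the transcription factor Tbx3 was lower (-1.23). On maturation limma called 0 of the 6, all 6 having an unadjusted p under 0.05, and voom called 3 lower. Of 16 partners of the 9 proteins (keratin 8 and 18, hyaluronan synthases, osteopontin-binding integrins, proteases that cleave Cd44, splicing factors), 10 were tested. At D14 7 were higher and 0 lower, with the protease Adam10 (5.12) and the integrin Itgav (3.84) at the top. In the passaged lines 7 were higher, Adam10 (4.55) and the membrane protease Mmp14 (3.53) most, and on maturation 2 fell, Adam10 (-2.07) and Adam17 (-1.03).

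Across the 11 group means of log2(FPKM + 1), which share libraries within a line, the 8 tested genes (28 pairs, without Epcam) did not all move alike. Pearson's r was 0.87 between Sox4 and Cd44, 0.85 between Krt19 and Cd24a, 0.80 between Cd44 and Cd24a and between Cd44 and Spp1, and 0.76 between the keratins. It was -0.13 between Sox9 and Krt19 and -0.32 between Sox9 and Krt7. Out of 10296 genes that reached 5 FPKM in some group, the closest course to each gene was that of Dopey2 for Sox9 (r = 0.973), Serpinb6b for Sox4 (0.981), Sema6b for Krt19 (0.974), Bex1 for Krt7 (0.962), Slc25a4 for Cd24a (0.988), Abhd2 for Cd44 (0.977) and LOC108169013 followed by Timp1 for Spp1 (0.950 and 0.949). For Prom1 it was Uty (0.986), a Y-linked gene, then Grip1 (0.979) and Nt5e (0.972). Next in likeness were Cxxc5 and Glt8d1 for Sox9, Ptprk and Zswim4 for Sox4, Card19 and Axl for Krt19, Crip1 and Pdlim2 for Krt7, Serpinb6a and Tax1bp3 for Cd24a, Efna4 and Ttyh3 for Cd44, and Ssh3 after Timp1 for Spp1. In the order of the 11 group levels, the samples of neighbouring groups overlapped in 1 of 10 places for Sox4, 2 for Spp1, 3 each for Sox9, Cd24a and Cd44, 4 for Krt19, 5 for Krt7 and 8 each for Epcam and Prom1.

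The day 7 table bears on IL6 itself, for Cd24a alone. It is described as a transcription factor table and lists 480 symbols, so its shares are of a selected set and not of all genes as elsewhere. Cd24a was at 0.265, 0.0556 and 0.104 FPKM in primary hepatocytes, 125, 113 and 122 FPKM in HCM-Hepa-D7 and 193, 168 and 196 FPKM in IL6-iHPCs-D7. Without IL6 the cultured hepatocytes were therefore already far above fresh ones (log2 difference 6.73, called higher, as were 45.7% of the 276 genes tested there). With IL6 the level was higher than without it in every sample, 186 ± 15.1 against 120 ± 6.44 FPKM (SD, n = 3). That log2 difference of 0.62 (SE 0.0806, limma adjusted p = 4.86e-05) passed the test and not the 2-fold threshold, which 4.71% of the 276 genes passed upward. The other 8 genes were not analysed here at day 7.

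In the whole liver most of the 9 genes were at or below 3 FPKM, and few of their differences after PHX were called. The highest group mean was 2.14 (Epcam) to 11.8 (Sox9) times the lowest. Single samples carried some of these means, and the log2(FPKM + 1) scale understates changes of low genes. The filter on low values left 7 of the 9, and Prom1 and Sox4 were under it. The test and the 2-fold threshold were passed by 2 values, Sox9 at 6 h and Cd44 at day 7. With 3 liver samples per group an exact permutation test cannot go below p = 0.1, so the limma fit, which pools the spread of all 18 liver samples, was used. Nothing in the labels says whether the 3 samples of a time are 3 animals, so p-values cover the spread between these samples, which may be technical. Where single livers or numbers of livers are named here and in the figures, liver samples are meant.

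Sox9 was at 1.70, 0.882 and 1.43 FPKM in normal liver and at 22.5, 8.97 and 3.34 FPKM at 6 h. All 3 livers at 6 h were above all 3 normal ones, but replicate 1 was far above the other two. The log2 difference was 2.12 (SE 0.633, adjusted p = 0.0110), 1 gene of 7 beside 4.78% of all genes, and without replicate 1 at 6 h it was 1.51 and not called. After quantile normalization, which moved the median of all genes from -0.28 to near 0 and the share of calls that were higher from 29.3% to 52.9%, it was 2.35. The 6 h livers also had less of the macrophage list, 110 to 210 FPKM against 274 to 440, and more of the leukocyte list, 39.6 to 41.3 against 3.73 to 10.5, while 18 other cholangiocyte genes summed to 75.3 to 78.1 against 74.9 to 82.6. The endothelial list was also lower, 67.5 to 79.7 against 108 to 115, as was the hepatocyte list, 44541 to 52663 against 54261 to 59013. Their part in the result was not tested. At later times Sox9 was at 1.33, 5.60 and 3.16 FPKM at 24 h, 2.24, 11.9 and 1.14 at day 3, 0.934, 1.00 and 1.02 at day 7 and 0.933, 4.48 and 1.72 at day 14, and each of these groups overlapped normal liver.

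Cd44 was at 1.19, 1.53 and 1.48 FPKM in normal liver and at 15.1, 10.4 and 10.3 FPKM at day 7, with a log2 difference of 2.41 (SE 0.234, adjusted p = 1.58e-06), 1 gene of 7 beside 7.81% of all genes. The day 7 livers were above every liver of another time, of which the highest was at 5.05 FPKM, and leaving out any 1 of the 6 livers compared gave 2.24 to 2.50. After quantile normalization it was 2.19, with 72.4% of all calls higher in place of 88.4%. At day 14 Cd44 was back at 1.53, 1.49 and 1.36 FPKM. The macrophage list moved with Cd44, from 274 to 440 FPKM in normal liver to 1553 to 2262 at day 7, as did the leukocyte list, 77.3 to 129, and the endothelial list, 142 to 217 against 108 to 115. The stellate list was at 95.0 to 158 FPKM against 65.0 to 84.6, and the hepatocyte list at 40861 to 47303 against 54261 to 59013. The 18 other cholangiocyte genes summed to 111 to 136 FPKM against 74.9 to 82.6. The part of these cells in the result was not tested. At day 3 Cd44 was at 2.05, 5.05 and 1.69 FPKM (log2 difference 0.62, adjusted p = 0.0592), and without replicate 2 the difference was 0.26.

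At 24 h, day 3 and day 14 limma called 0 of the 7 genes in either direction, where 7.90%, 5.82% and 2.98% of all genes were called. At an unadjusted p under 0.05 there were 2, 1 and 2 genes, and voom called 0 at each time. At day 14, 32.9% of all calls were higher, and 47.6% after quantile normalization. Spp1 was at 23.4, 25.3 and 29.6 FPKM in normal liver, 55.0, 54.4 and 34.4 at 6 h, 33.6, 41.8 and 189 at 24 h and 45.2, 132 and 27.2 at day 3. The livers at 6 h and 24 h were all above normal liver, and the high values at 24 h and day 3 came from 1 liver each. The log2 difference at 24 h was 1.28 (adjusted p = 0.0885). It was 0.51 without replicate 3 and 1.74, and called, without replicate 1. At day 3 it was 1.05, and 0.42 without replicate 2. Spp1 was at 29.4, 39.5 and 29.8 FPKM at day 7 and 51.7, 27.8 and 43.0 at day 14. Cd24a was at 1.08, 1.60 and 1.27 FPKM in normal liver, 1.81, 2.15 and 1.81 at 6 h, 1.13, 2.87 and 5.03 at 24 h and 1.54, 22.6 and 1.31 at day 3. The day 3 difference of 1.16 was 0.070 without replicate 2 and 1.75, and called, without replicate 3. At day 7 Cd24a was at 3.42, 3.01 and 3.10 FPKM, all above normal liver, and at day 14 at 2.56, 1.48 and 1.91.

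Replicate 2 at day 3, the liver with the highest Cd24a, also had 768 FPKM of the macrophage list against 356 and 243 in the other day 3 livers, 218 FPKM of the stellate list against 74.0 and 86.5, 107 FPKM of the other cholangiocyte genes against 79.3 and 86.4, and 36298 FPKM of the hepatocyte list against 46988 and 68736. Replicate 3 at 24 h, the liver with the highest Spp1, had 145 FPKM of the stellate list and 106 of the other cholangiocyte genes, and the other 24 h livers had 94.7 and 134 and 75.1 and 75.0. Several lists thus stood apart in replicate 2 at day 3. Replicate 3 at 24 h stood apart in the other cholangiocyte genes, while its stellate sum was near that of replicate 2, in which Spp1 was at 41.8 FPKM. Their part in the results was not tested.

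**Figure D3:**
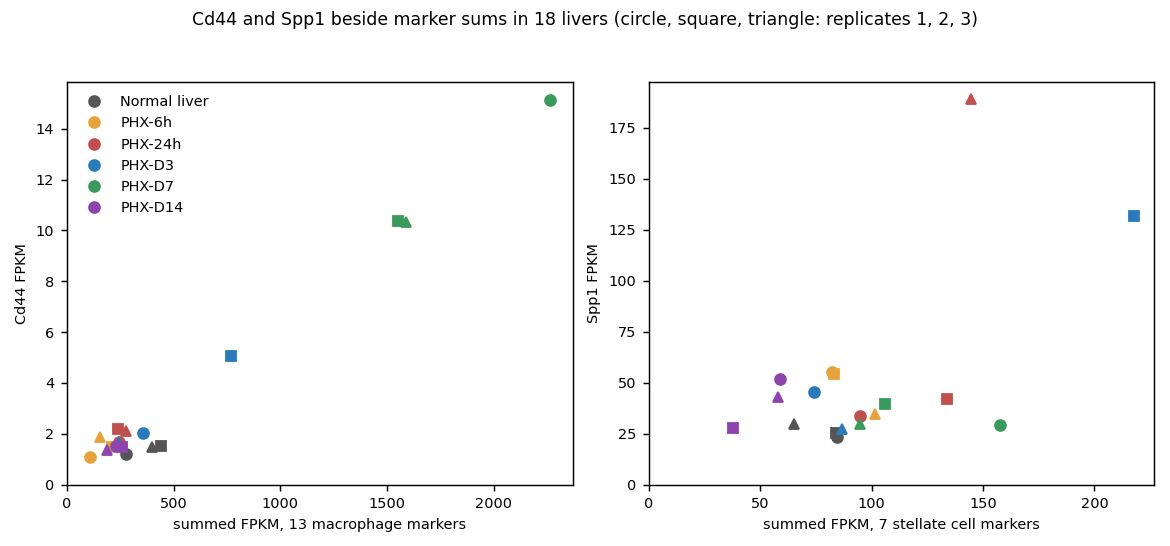
The left plot sets Cd44 against the summed FPKM of 13 macrophage markers and the right plot Spp1 against the summed FPKM of 7 stellate markers, with 1 point for each of the 18 livers, marked by time. The 3 day 7 livers are the highest in both Cd44 and the macrophage sum, and replicate 3 at 24 h and replicate 2 at day 3 are high in both Spp1 and the stellate sum, while 1 day 7 liver has 158 FPKM of stellate markers and 29.4 of Spp1.

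The biliary keratins and Epcam stayed low. Krt19 was at 0.691, 1.53 and 0.871 FPKM in normal liver, 1.99, 1.34 and 1.01 at 6 h, 1.50, 2.27 and 2.33 at 24 h, 0.441, 1.64 and 0.808 at day 3, 4.43, 1.79 and 1.44 at day 7 and 2.33, 2.72 and 3.13 at day 14. The day 14 livers were the 1 group that did not overlap normal liver. Their log2 difference of 0.89 (SE 0.278, limma adjusted p = 0.0378) passed the test and not the 2-fold threshold, with means of 2.73 FPKM against 1.03 in normal liver. It was called with a pseudocount of 0.1 (1.38), after quantile normalization (1.04) and without replicate 2 of normal liver (1.06). Krt7 was at 0.635, 0.701 and 0.512 FPKM in normal liver, 1.02, 0.810 and 0.722 at 6 h, 1.21, 0.910 and 1.29 at 24 h, 2.29, 0.974 and 0.738 at day 7 and 0.747, 0.841 and 0.956 at day 14. These 4 groups all lay above normal liver, and day 3, at 0.387, 0.679 and 0.383 FPKM, did not. None of the Krt7 differences passed the test. Epcam ranged from 0.307 to 1.56 FPKM over the 18 livers, Prom1 from 0.0898 to 0.794 and Sox4 from 0.0669 to 0.999, the last resting on 11 to 215 reads. Sox4 was at 0.333, 0.586 and 0.221 FPKM in normal liver and 0.366, 0.267 and 0.171 at 6 h. The transcription factor that was highest of all groups in the D3 culture thus overlapped normal liver at every time after PHX.

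Counted over the 9 genes, livers after PHX lay entirely above normal liver for 4 genes at 6 h (Sox9, Krt7, Cd24a and Spp1), 3 at 24 h (Krt7, Cd44 and Spp1), 2 at day 3 (Prom1 and Cd44), 5 at day 7 (Krt7, Epcam, Cd24a, Prom1 and Cd44) and 4 at day 14 (Krt19, Krt7, Epcam and Prom1), and for none entirely below. Of all genes tested, 16.0%, 23.4%, 20.2%, 39.0% and 13.7% lay entirely above and 48.6%, 25.4%, 19.6%, 16.7% and 30.0% entirely below. These shares are of the 11114 genes that passed the filter on low values. Prom1 and Sox4 did not pass it, and Prom1 is among the genes counted at days 3, 7 and 14. Of the lists, 1 of 8 tested cholangiocyte genes (Ddr1, 1.18), 2 of 6 progenitor genes (Igdcc4, 2.16, and Afp, 1.39) and 2 of 11 partners (Mmp14, 1.21, and the integrin Itgb3, 1.02) were higher at day 3, beside 3.33% of all genes, and 0 were lower, beside 2.49% (also 0 lower at an unadjusted p under 0.05 and by voom). Replicate 2 decided these calls: without it Ddr1 was at 0.50, Afp at 0.64, Itgb3 at 0.61 and Mmp14 at 0.87, none of them called, and Igdcc4 fell under the filter on low values.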

How the data were processed

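RNA of 60 samples was sequenced from poly-A selected libraries with no strand mark stated. The submitters' processing notes name TopHat 1.4.1, Cufflinks 1.3.0 and mm10, without their roles. The authors deposited 1 value per gene and sample, read here as FPKM: low values step in whole reads within 0.02 reads, by gene length, which gave the reads per gene and the depth, with precision set by counting error. The 3 tables were fitted separately with limma 3.58.1 (R 4.3.3), with a trend, on log2(FPKM + 1), leaving out genes that reached 1 FPKM in fewer than 3 samples, and p-values were adjusted by the Benjamini-Hochberg method over all genes of a table. A gene was called at an adjusted p under 0.05 and at least 2-fold. The steps were tested on simulated data. The 9 genes and the lists were chosen with earlier results of these data known. Besides the 9 genes, the text names the called genes of the cholangiocyte, progenitor and partner lists with the largest changes and, per gene, the 3 genes with the highest Pearson r over 11 groups. Sequences are from RefSeq (GRCm38.p6). Alternatives were another pseudocount, filters, quantile normalization, no fold threshold, voom on recovered reads, a replicate block, and each sample left out. Figures were drawn with matplotlib 3.10.9.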

Additional observations from a re-analysis of the deposited data

Results flagged for a closer look

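The response to maturation was compared between lines with a direct test of the difference (limma contrasts of the IL6-iMH minus IL6-iHPC change), with mouse-1 P10 as the reference in each, so the comparisons share those samples. Values are differences of log2 changes, and each is over technical repeats of 1 culture. For mouse-2 P10, 2 of the 8 tested genes differed, where 14.7% of all genes did: Sox4 (-1.13) fell further and Krt19 (-2.98) did not rise. For clone-1, 6 differed, where 30.8% of all genes did. Sox9 fell by less (1.61), Sox4 (3.97) and Cd44 (1.76) did not fall, and Krt19 (-5.29), Krt7 (-5.10) and Cd24a (-1.50) did not rise. The clone-1 IL6-iHPCs and IL6-iMHs also differed in their Y-linked genes. For mouse-1 P35, 6 differed, where 33.7% of all genes did. For Sox9 the difference was 1.01 with a pseudocount of 1, 0.18 and not called with 0.1, and -0.021 by voom, and on the FPKM scale Sox9 went to 9.29% of its IL6-iHPC mean at P35 and to 9.41% at P10. Sox4 (-1.45), Krt19 (-4.77), Cd24a (-2.92), Cd44 (-1.09) and Spp1 (-1.83) changed towards lower values. After quantile normalization the calls for Sox4 in mouse-2 P10 (-0.93), Cd24a in clone-1 (-0.96) and Cd44 in mouse-1 P35 (-0.74) were lost. In mouse-2 P10, Sox9 (1.02) and Spp1 (-1.27) were called after quantile normalization and not before it.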

How the results depend on the processing

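The count of the 9 genes called was within 1.5 times the count above under every alternative run, with the following exceptions. With no fold threshold it was 8 for passaged IL6-iHPCs against D14, 8 for IL6-iMHs against IL6-iHPCs, 1 for IL6-iHPCs-D7 against HCM-Hepa-D7 and 5 for mouse-2 minus mouse-1 P10. It was 4 for P35 against P10 after quantile normalization, and 1 at PHX day 14 with a pseudocount of 0.1, after quantile normalization and with no fold threshold. Leaving out 1 liver gave 0 to 1 at 6 h (0 without replicate 1), 24 h (1 without replicate 1), day 3 (1 without replicate 3) and day 14 (1 without replicate 2 of normal liver).

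Directions turned in these values. Without clone-1, Cd24a in passaged lines against D14 was -0.26 and Prom1 on maturation 0.0062. Quantile normalization gave -0.11 for Cd24a in passaged lines against D14, -0.42 for Sox9 and -0.017 for Prom1 in IL6-iMHs against hepatocytes, 0.041 for Epcam at 24 h, -0.26 for Cd24a on maturation of mouse-2 and 0.20 for Krt7 in mouse-2 minus mouse-1. Against hepatocytes, it gave -0.094 for Sox9 in clone-1 IL6-iHPCs, and for Prom1 -0.049 in mouse-1 P10 and -0.031 in P35 IL6-iHPCs and -0.011 in mouse-1 and -0.023 in mouse-2 IL6-iMHs. For P35 minus P10, voom gave -0.021 for Sox9 and -0.50 for Krt7, and a pseudocount of 0.1 gave -0.30 for Krt7. Leaving out 1 sample gave -0.0036 to 0.019 for Prom1 at P35 against P10, -0.065 to 0.16 for Cd44 at 6 h, -0.081 to 0.11 for Epcam at 24 h, -0.31 to 0.13 for Krt19 at day 3, -0.0089 to 0.74 for Sox9 and -0.026 to 0.076 for Cd44 at day 14. The sign turned without replicate 1 of P35 for Prom1, replicate 1 of normal liver or replicate 3 at 6 h for Cd44, replicate 3 of normal liver or replicate 1 at 24 h for Epcam, replicate 2 of normal liver or replicate 1 at day 3 for Krt19, and at day 14 replicate 2 for Sox9 and replicate 1 of normal liver for Cd44. The cause was not tested.

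The replicate block changed no call in the 221 values and no count, for example 2.12 for Sox9 at 6 h with it as without. The replicate numbers do not pair the samples, the median correlation of same-numbered samples being -0.0156 in the cultured cells, -0.0551 in the livers and -0.0963 at day 7. Calls over all genes changed by more than 1.5 times as follows, the count of the report first and then those with a pseudocount of 0.1, no fold threshold and voom: 1254, 2147, 8793 and 2363 at D14 against D3, 1413, 2368, 9624 and 2656 in passaged lines against D14, 1810, 2921, 5838 and 3022 at 6 h, 878, 1412, 3690 and 1390 at 24 h, 647, 1069, 3217 and 1081 at day 3, 982, 1519, 3262 and 1556 at day 7, and 331, 777, 1881 and 755 at day 14. With no fold threshold, 7323 became 11598 in passaged lines against hepatocytes, 4160 became 10325 at P35 against P10, 3459 became 11301 on maturation and 4020 became 10832 in IL6-iMHs against hepatocytes. The last pair were 5434 and 6480 by voom, and maturation gave 2281 after quantile normalization. A filter at 5 FPKM gave 625 at PHX day 7. The 15 calls of IL6-iHPCs-D7 against HCM-Hepa-D7 were 25, 9 and 160 with a pseudocount of 0.1, a filter at 5 FPKM and no fold threshold. Depth limits Epcam and Prom1, which rested on at most 8 reads in hepatocytes and in the passaged IL6-iHPCs other than clone-1, and on at most 15 in IL6-iMHs, and Krt7 in hepatocytes, which was at 0 reads.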
